A study of Mus musculus with 6 samples.

Results

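Expression of 9 genes of the Slc22 family of organic ion transporters was examined in kidneys of mice labelled as Nampt conditional knockouts. The genes were Slc22a2, Slc22a4, Slc22a5, Slc22a6, Slc22a7, Slc22a8, Slc22a12, Slc22a19 and Slc22a26, out of 21154 genes named on the array. They were found by the RefSeq accession of each probe, and each was represented by 1 probe printed as 1 spot. The data were single-colour Agilent microarrays of total RNA from whole kidneys of male C57BL/6J mice, 1 array per numbered animal. One group held 3 animals labelled as controls and the other 3 animals labelled as iNampt-conditional knockouts. Nampt encodes the enzyme that limits the rate at which NAD is rebuilt from nicotinamide. The series title places the Nampt axis in the renal proximal tubule and in diabetic nephropathy, but the labels name no diabetic treatment or other agent for these animals. The age of the mice, the Cre driver, the deleted exons and the alleles carried by the controls are not given in the sources used here.

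Slc22 proteins carry small charged molecules across the plasma membrane, and many of them are abundant in the proximal tubule, which secretes drugs, toxins and metabolic waste into urine. Organic cation transporters take up positively charged compounds from blood, the OCTN carriers handle carnitine and ergothioneine, and organic anion transporters take up anions from blood in exchange for intracellular dicarboxylates. Other anion carriers of the family sit on the luminal side, among them the urate exchanger encoded by Slc22a12. A group of closely related family members lies in a tandem cluster in rodents, and many of these have no well-defined substrate.

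All values are given as log2 of the array's processed spot signal relative to the 75th percentile of that array, a level within a probe that cannot be set against the level of another probe. All 54 values of the 9 transporters were well above background. On the arrays 57.3% to 63.3% of spots were well above background and none was saturated. The 3 controls and knockout 1 lay in the first row of the slide and knockouts 2 and 3 in the second, where the lowest signal called above background was higher (29.6 and 32.2 units against 18.5 to 20.9). The second row held no control, so within a row only knockout 1 can be set against controls. Every difference given below with slide row as a block is therefore that of knockout 1 from the control mean. Nampt itself, as a check of the labels, was 2.78, 2.59 and 2.65 in controls 1, 2 and 3, against 1.80, 1.502 and 1.53 in knockouts 1, 2 and 3. Its log2 difference of -1.06 ± 0.10 (SE) passed limma's test (adjusted p = 0.0433), although whether its probe lies in the deleted part is not known. The labels number the mice of each group and give no further word on their origin, so p-values measure the spread between these 6 samples, whose number limits the precision. With 3 against 3, exact two-sided permutation of the labels gives p = 0.1 at best for any gene. The p-values below are therefore those of limma, adjusted over all 15322 genes tested.

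Of the 9 transporters, 1 passed the test, and it was lower in the knockouts: Slc22a26, an anion transporter gene of the tandem cluster, stood at 0.546 of its control level. The other 8, including the main basolateral uptake carriers Oct2, Oat1 and Oat3, did not pass at an adjusted p of 0.05. Over all genes tested, 0.0653% were called lower and 0.104% higher. The 9 log2 differences ran from -0.87 to 0.19 with a median of -0.052, against a median of -0.0077 for all genes, and 6 were negative and 3 positive. The groups did not overlap, with all knockouts below all controls, for 2 of the 9 (Slc22a26 and Slc22a19), where 10.5% of all genes did so. They did not overlap in the other direction for 1 (Slc22a4), against 9.04% of all genes. At an unadjusted p under 0.05, the same 2 genes were lower and the same 1 higher, where 6.12% and 6.68% of all genes were. In whole kidney, fewer cells of a type and less RNA per cell cannot be told apart.

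**Figure D1:**
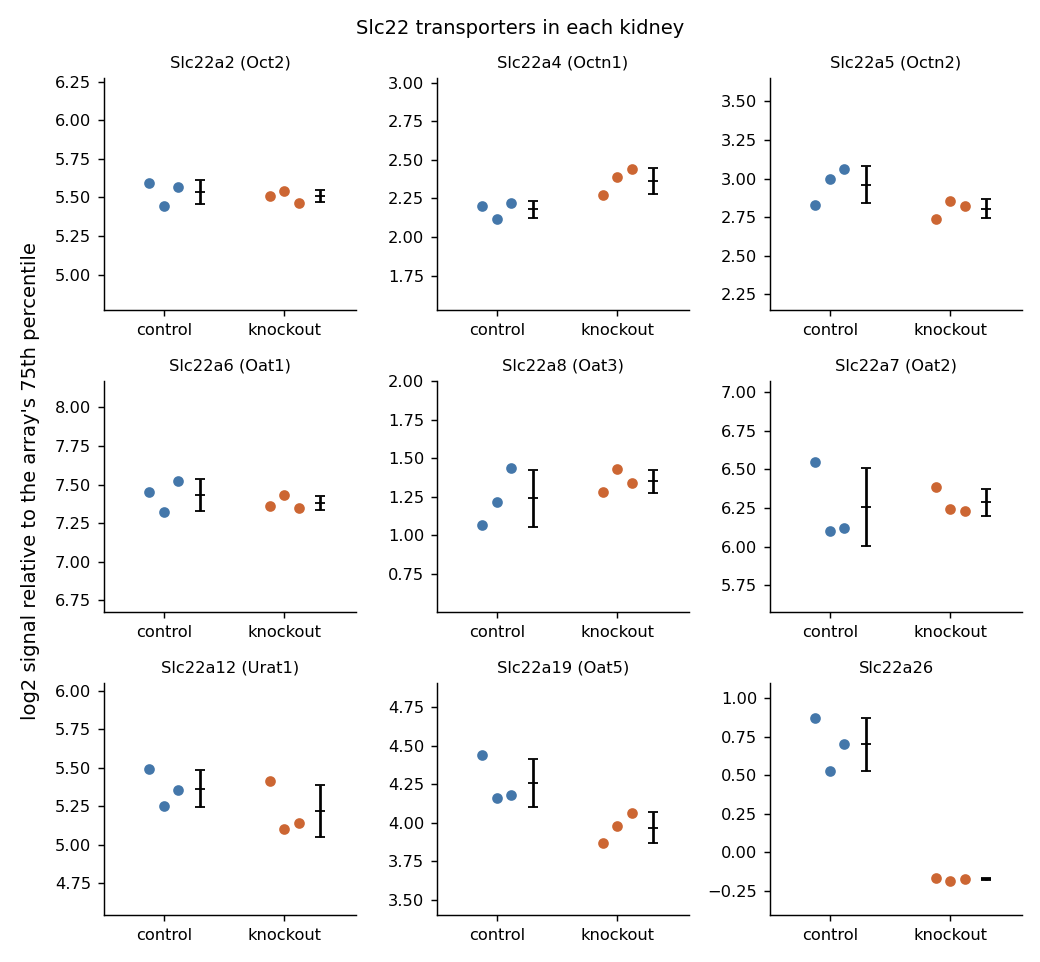
Level of each transporter in each kidney, as log2 signal relative to the array's 75th percentile. Points are single animals (3 controls in blue, 3 knockouts in orange, each in the order of the replicate numbers), and bars beside them show mean ± SD. Each panel spans the same range of log2 units around its own centre, and the groups lie far apart for Slc22a26 alone.

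The organic cation transporter Slc22a2, known as Oct2, takes up creatinine and cationic drugs from blood. It lay at 5.60, 5.44 and 5.56 in controls 1, 2 and 3 and at 5.51, 5.54 and 5.47 in knockouts 1, 2 and 3. The knockouts fell inside the range of the controls. The difference was -0.029 ± 0.058 (SE; limma adjusted p = 0.875), with a 95% interval from -0.17 to 0.11. On a linear scale the interval runs from 0.888 to 1.08 of the control level. Its sign turned without control 1 (0.0014) and with array weights (0.00075).

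The genes of the OCTN carriers had differences of opposite sign, neither past the threshold. Slc22a4 (Octn1) transports ergothioneine, an antioxidant taken up from the diet. Its level was 2.20, 2.12 and 2.22 in the controls and 2.27, 2.39 and 2.44 in the knockouts. Every knockout lay above every control, by a margin of 0.0539 between knockout 1 and control 3. The difference was 0.19 ± 0.062 (SE; limma adjusted p = 0.321), and it was 0.093 with slide row as a block. Slc22a5 (Octn2) is the sodium-dependent carnitine transporter that reabsorbs carnitine from the tubular fluid. It stood at 2.83, 2.99 and 3.06 in the controls and at 2.74, 2.86 and 2.82 in the knockouts. Control 1 lay between the knockouts, and the other controls lay above all of them. The difference was -0.15 ± 0.076 (SE; limma adjusted p = 0.468), with a 95% interval from -0.34 to 0.030. Slc22a21 (Octn3), listed between these genes on chromosome 11, was at -0.14 ± 0.047 (SE; limma adjusted p = 0.317), with all knockouts below all controls.

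Oat1 and Oat3, encoded by the neighbouring genes Slc22a6 and Slc22a8 on chromosome 19, take up organic anions such as the classical test substrate para-aminohippurate from blood. Slc22a6 was at 7.46, 7.32 and 7.52 in the controls and at 7.36, 7.43 and 7.35 in the knockouts, so that the knockouts lay within the control range. The difference was -0.052 ± 0.066 (SE; limma adjusted p = 0.801), and its 95% interval runs from 0.862 to 1.08 of the control level. Slc22a8 was at 1.07, 1.22 and 1.43 in the controls and at 1.28, 1.43 and 1.34 in the knockouts. Its controls spanned 1.29-fold and its knockouts 1.11-fold, and again the knockouts lay within the control range. The difference was 0.11 ± 0.10 (SE; adjusted p = 0.711), with a 95% interval from 0.908 to 1.29 of the control level. Slc22a8 was at 0.025 without control 1, 0.21 without control 3 and 0.044 with slide row as a block, while Slc22a6 was at -0.11 without control 2 and -0.0073 without control 3.

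Slc22a7 (Oat2) carries organic anions and cyclic nucleotides. It was at 6.55, 6.10 and 6.12 in the controls and at 6.39, 6.24 and 6.23 in the knockouts. Control 1 lay above the other 5 animals, and the controls spanned 1.36-fold. The difference was 0.030 ± 0.13 (SE; limma adjusted p = 0.949), with a 95% interval from -0.29 to 0.35, and its sign turned when control 2, control 3 or knockout 1 was left out (-0.047, -0.037 and -0.020). The urate exchanger gene Slc22a12 (Urat1) was at 5.49, 5.25 and 5.35 in the controls and at 5.41, 5.10 and 5.14 in the knockouts. Knockout 1 lay inside the control range, while knockouts 2 and 3, which share the second row of the slide, lay below it. The difference was -0.15 ± 0.11 (SE; adjusted p = 0.639), and it was 0.049 with slide row as a block, -0.083 without control 1, -0.088 without knockout 2 and -0.24 without knockout 1.

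Slc22a19 (Oat5) encodes a luminal anion exchanger of the late proximal tubule. It lay at 4.44, 4.16 and 4.18 in the controls and at 3.87, 3.98 and 4.06 in the knockouts. All knockouts were below all controls, with a gap of 0.0978 between control 2 and knockout 3. The difference was -0.29 ± 0.097 (SE; limma adjusted p = 0.318), or 0.818 of the control level. It did not pass over all genes in any of 18 other settings, where it ran from -0.39 to -0.20.

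Slc22a26 showed the only called difference among the 9. Its processed signal was 1604, 1258 and 1293 units in the controls and 739.7, 688 and 715 units in the knockouts, before scaling between arrays. On the normalised log2 scale this was 0.87, 0.53 and 0.70 in the controls, against -0.17, -0.18 and -0.17 in the knockouts. The groups were separated by 0.69 between the lowest control and the highest knockout, and the knockouts differed among themselves less (SD 0.0081, n = 3) than the controls did (SD 0.17, n = 3). Slc22a26 thus fell, with a log2 difference of -0.87 ± 0.091 (SE; limma adjusted p = 0.0461), which is 1.83-fold lower in the knockouts, with a 95% interval from 0.468 to 0.637 of the control level. The difference was also -0.87 when slide row was a block and knockout 1 alone was set against its row (adjusted p = 0.136). The call was also lost on leaving out control 2, control 3 or any 1 knockout (adjusted p from 0.0722 to 0.209, difference from -0.96 to -0.87), fits with fewer animals.

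**Figure D2:**
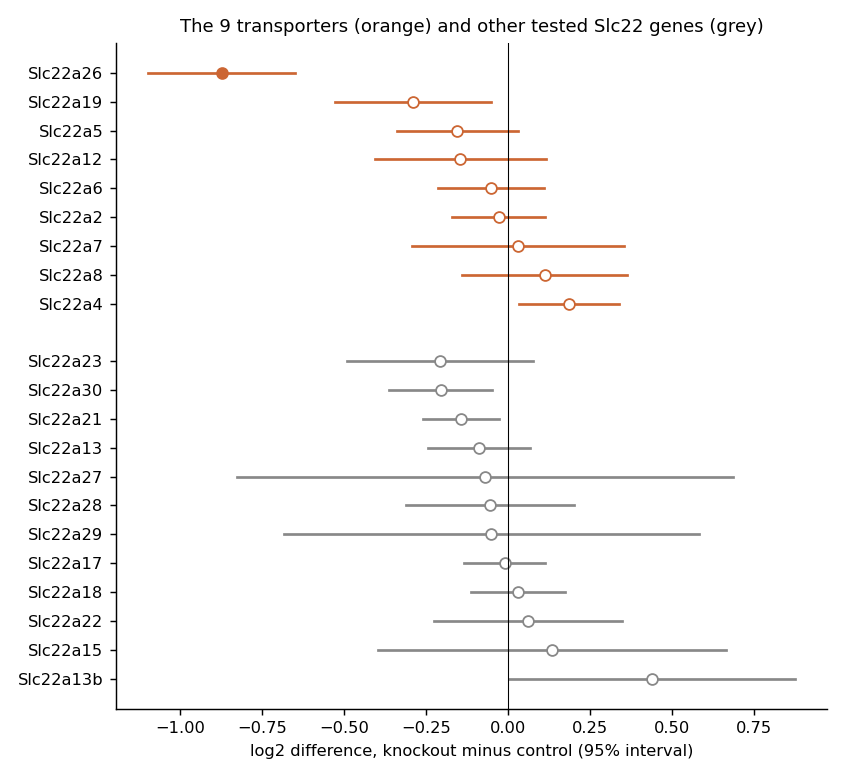
Log2 difference between knockout and control kidneys for the 9 transporters (orange) and other Slc22 genes tested (grey; 1 of the 13 is not shown), with 95% intervals from limma. Filled points passed an adjusted p of 0.05, which only Slc22a26 did, at -0.87; the intervals of Slc22a19, Slc22a4, Slc22a30, Slc22a21 and Slc22a13b also leave out 0, but these genes did not pass after adjustment.

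On chromosome 19 the RefSeq table lists Slc22a19, Slc22a26, Slc22a27, Slc22a28, Slc22a29, Slc22a30, Slc22a8 and Slc22a6 in this order, with pseudogenes and noncoding genes between them. Slc22a26 and its neighbours are close paralogues, the probe sequences were not used here, and signal shared between paralogues cannot be told apart. The neighbours of Slc22a26 gave smaller differences. Slc22a27 was at -0.070 ± 0.31, Slc22a28 at -0.056 ± 0.10 and Slc22a29 at -0.052 ± 0.26 (SE), all with overlapping groups. All 3 had their lowest value in knockout 1, at -2.34, 4.49 and -0.40, and with slide row as a block they were at -0.69, -0.25 and -0.56. Slc22a30 was at 2.47, 2.29 and 2.41 in the controls and at 2.17, 2.14 and 2.24 in the knockouts, without overlap, a difference of -0.21 ± 0.064 (SE; limma adjusted p = 0.292).

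The change of Slc22a26 beside its neighbours was described by the log2 ratio of both genes within each array, set to 0 at the control mean. Slc22a26 was taken because it was called, so ratios that are lower in the knockouts follow from that choice. The exact p-values below are no further test of it. The ratio of Slc22a26 to Slc22a19 was -0.0090, -0.073 and 0.082 in the controls and -0.47, -0.60 and -0.67 in the knockouts, so the groups did not overlap (mean difference -0.58; exact two-sided permutation p = 0.1, the smallest this design allows). Against Slc22a28 the mean difference was -0.82, against Slc22a29 -0.82 and against Slc22a30 -0.67, each without overlap between groups. The groups barely separated for Slc22a29, where knockout 1 (-0.3056) lay just below control 3 (-0.304). Against Slc22a27 it was -0.80, with knockout 1 (-0.17) inside the control range. The exact p was 0.1 for each ratio but that to Slc22a27, where it was 0.2, and these 5 ratios share Slc22a26, so they are not independent. None can pass 0.05 with 3 animals a group.

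**Figure D3:**
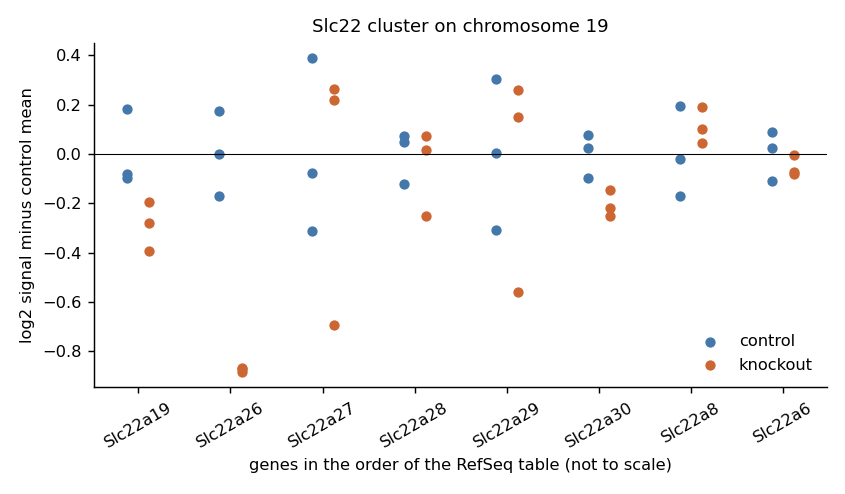
Each animal's log2 signal relative to the control mean for the 8 Slc22 genes of the chromosome 19 cluster, in the order of the RefSeq table (distances not to scale). Controls are blue and knockouts orange; the knockouts of Slc22a26 lie together near -0.87, those of Slc22a19 and Slc22a30 lie below their controls by less, and the groups of the other genes overlap.

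The promoters of Slc22a19 and Slc22a26 are shown because these were the only 2 of the 9 transporters with all knockouts below all controls, and they neighbour each other. The 250 bases before each RefSeq start (GRCm38.p6, minus strand for both, chr19:7711311-7711560 and chr19:7802668-7802917) are written 5′ to 3′ in the direction of the gene. Capitals mark runs of 8 or more bases that are identical in their alignment.
Slc22a19: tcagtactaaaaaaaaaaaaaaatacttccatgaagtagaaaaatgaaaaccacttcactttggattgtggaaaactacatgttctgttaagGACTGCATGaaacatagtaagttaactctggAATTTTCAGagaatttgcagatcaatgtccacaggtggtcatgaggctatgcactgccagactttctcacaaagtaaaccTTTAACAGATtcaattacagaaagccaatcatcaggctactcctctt
Slc22a26: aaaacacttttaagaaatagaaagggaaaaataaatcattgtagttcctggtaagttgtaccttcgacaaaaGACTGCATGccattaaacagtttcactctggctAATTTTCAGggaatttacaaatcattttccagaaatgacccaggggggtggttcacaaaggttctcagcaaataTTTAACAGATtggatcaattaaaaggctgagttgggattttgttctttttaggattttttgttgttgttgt
The alignment placed 154 identical bases, 61.6% of the window, and the 3 capitalised runs are GACTGCATG, AATTTTCAG and TTTAACAGAT. The Slc22a26 promoter shared 54.4%, 52.0% and 52.4% with those of Slc22a6, Slc22a8 and Slc22a12. Among its nearer neighbours it shared 63.2% with Slc22a30, 61.6% with Slc22a28, 58.4% with Slc22a27 and 48.8% with Slc22a29, which was less than with Slc22a6, Slc22a8 or Slc22a12. The Slc22a19 promoter shared 68.4% with Slc22a30, 67.6% with Slc22a28, 59.2% with Slc22a6 and 54.4% to 58.4% with Slc22a27, Slc22a29, Slc22a8 and Slc22a12. Those of Slc22a27 and Slc22a6 shared 63.2%, so a share of 61.6% was not particular to Slc22a19 and Slc22a26. The Slc22a28 and Slc22a30 promoters were 95.2% identical, and their transcripts differed between groups by -0.056 and -0.21. GC content was 35.6% for Slc22a19 and 34.4% for Slc22a26, against 48.4% for Slc22a6 and 55.2% for Slc22a8.

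The other Slc22 genes on the array were 17, of which 13 were tested and 0 passed by limma. At an unadjusted p under 0.05, 1 was higher and 2 were lower, against 6.68% and 6.12% of all genes. The median difference of the 13 was -0.052. The list of other Slc22 genes held 15 of the 17, of which 11 were tested, with a median of -0.056. Slc22a13, an organic anion carrier, was at -0.089 ± 0.063 (SE) and Slc22a23 at -0.21 ± 0.12, which became 0.018 and 0.029 with slide row as a block. Slc22a13b, which RefSeq lists as a transcribed pseudogene, was at 0.44 ± 0.18 (adjusted p = 0.389) with all knockouts above all controls. Slc22a17, Slc22a18 and Slc22a22 were at -0.011, 0.031 and 0.061, and Slc22a15 at 0.13 ± 0.22. Slc22a3 (Oct3), Slc22a16 and Slc22a20 were not well above background on any array, and Slc22a14 was so on 2 arrays, so these 4 were not tested.

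Genes that work with the transporters were taken from lists. Of 15 partners in anion exchange, luminal exit and scaffolding, 0 passed by limma. At an unadjusted p under 0.05, 1 was higher, against 6.68% of all genes. The median difference of the 15 was 0.0024, and -0.027 with slide row as a block. Abcb1a, a luminal efflux pump for drugs, was at 0.26 ± 0.050 (SE; adjusted p = 0.162) with all knockouts above all controls. The efflux pump gene Abcc4 was at 0.22 ± 0.13 and the lactate carrier gene Slc5a12 at 0.14 ± 0.10. Slc13a3, which loads tubule cells with the dicarboxylates that Oat1 and Oat3 exchange, was at -0.12 ± 0.088. Slc47a1 (Mate1), the luminal exit route for cations taken up by Oct2, was at -0.00038 ± 0.064.

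Carnitine is the main solute of Slc22a5. Of 9 genes of carnitine synthesis and use, 0 passed by limma, and 1 was lower at an unadjusted p under 0.05, against 6.12% of all genes. Their differences were negative for 8, where 8101 of all 15322 were. The median of the 9 was -0.099, or -0.072 with slide row as a block. Aldh9a1, an enzyme of carnitine synthesis, was at -0.17 ± 0.068 (SE; adjusted p = 0.382), with all knockouts below all controls. Slc25a20, which carries acylcarnitine into mitochondria, was at -0.14 ± 0.072, Cpt2, which moves the acyl group from carnitine to coenzyme A there, at -0.12 ± 0.071, and Crat, the carnitine acetyltransferase, at -0.18 ± 0.11.

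Among 7 transcription factors that act on Slc22 genes or their pathways, 0 passed by limma, with a median of 0.020. Of these, 1 was higher at an unadjusted p under 0.05, against 6.68% of all genes. Ppara was at 0.30 ± 0.089 (SE; adjusted p = 0.277), with all knockouts above all controls, and the nuclear receptor gene Hnf4a at -0.12 ± 0.058, with all knockouts below. Nr1h4, the bile acid receptor, was at -0.24 ± 0.15, with overlap. Bcl6, at 0.82 ± 0.95, ran from 1.81 to 4.95 among the knockouts and from 2.10 to 3.62 among the controls. With slide row as a block Bcl6 was at -1.28. Since several family members differ between male and female kidneys, 6 androgen-responsive kidney genes were listed too. None of these passed by limma (0 at an unadjusted p under 0.05; median 0.040), with Odc1 at -0.29 ± 0.15, Slco1a1 at 0.44 ± 0.25, Cyp4b1 at 0.14 ± 0.082 and Kap, an abundant androgen-dependent transcript, at 0.010 ± 0.057 (SE).

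**Figure D4:**
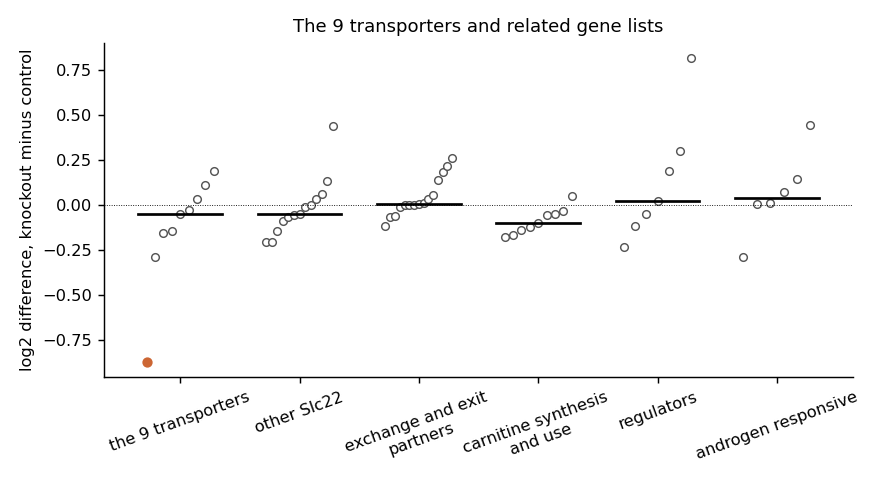
Log2 difference between knockout and control kidneys for each tested gene (points) and the list median (bars), for the 9 transporters, the other Slc22 genes and the 4 related lists. The filled orange point, Slc22a26 at -0.87, is the only gene of these lists that passed an adjusted p of 0.05, and the medians lie between -0.099 and 0.040.

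The samples were checked for their cell types with 12 marker lists, all of whose 59 tested genes were well above background on all arrays. Early proximal tubule markers, 10 of 10 tested, had a median of -0.045, 0 passed by limma (0 at an unadjusted p under 0.05), and their summed signal, in multiples of the array's 75th percentile, was 846 to 989.6 in the controls and 867 to 910.1 in the knockouts. Straight proximal tubule markers, 5 of 5 tested, had a median of 0.033 and sums of 221 to 263 and 239 to 259.5. In that list Rnf24 was the 1 gene that passed, lower in the knockouts at -1.04 ± 0.10 (SE; limma adjusted p = 0.0433), and Cyp7b1, a steroid hydroxylase gene, was at 0.17 ± 0.045 (adjusted p = 0.252). The medians of the early and straight lists were -0.077 and -0.099 when slide row was a block, and Rnf24 was then at -0.84. The part of these cell types in the Slc22a26 result was not tested.

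No marker of injury or of macrophages passed over all genes by limma. At an unadjusted p under 0.05, 6 and 4 of them were higher, against 6.68% of all genes. Of 8 injury markers 7 were positive (median 0.75), with Havcr1, the gene of the injury protein KIM-1, at 3.71 ± 0.65 (SE; limma adjusted p = 0.139) and Lcn2 at 1.12 ± 0.21. With slide row as a block the injury median was 0.21, Havcr1 was at 2.17 and Lcn2 at 0.84. The summed signal of the injury markers was 108 to 133 in the controls and 125 to 132 in the knockouts. That sum was mostly the signal of Clu, whose control mean was 6.37 and difference -0.013. Havcr1, with a control mean of -4.07, added little, so the sum does not follow the weaker probes. All 5 macrophage markers were positive (median 0.28), with sums of 27.3 to 30.5 and 33.4 to 38.0, and Csf1r was at 0.28 ± 0.063; with slide row as a block the median was 0.22. Markers of both lists were well above background in controls and knockouts, and their part in the Slc22a26 result was not tested. List medians were -0.0018 for the thick ascending limb, -0.16 for the distal convoluted tubule, 0.22 for principal cells and -0.11 for intercalated cells, which became -0.041, -0.53, -0.015 and 0.048 with slide row as a block. They were 0.013 for podocytes, 0.0012 for endothelium, -1.05 for adipocytes and -0.071 for hepatocytes, and -0.14, -0.038, -1.59 and -0.023 with that block. All values with that block rest on knockout 1 as the only knockout. Against the control mean, the adipocyte median was -1.59 and -2.24 in knockouts 1 and 2 but 0.73 in knockout 3. By limma 0 genes of these 8 lists passed. Of their markers, 1 of intercalated cells was higher at an unadjusted p under 0.05, against 6.68% of all genes. In the other direction, 2 of that list and 1 adipocyte marker were lower, against 6.12%.

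The genes whose profile over the 6 arrays was most like the mean of the 9 transporters were 1700029M20Rik, Dusp22 and 1110065P20Rik, with Pearson r of 0.996, 0.992 and 0.992. For Slc22a26 alone they were Cemip2, which encodes a hyaluronan-degrading enzyme (r = 0.998), Fmo5, a flavin monooxygenase gene (r = 0.996), and Cenpj, a centriole gene (r = 0.994). These values are a description over 6 arrays that also share the group difference. Of 15310 genes, 192 had r above 0.9 with the mean of the 9 transporters and 315 with Slc22a26. Slc22a26 is part of that mean and had the largest difference of the 9. Cemip2 was at -0.27 ± 0.045 (SE; limma adjusted p = 0.127), Fmo5 at -0.30 ± 0.052 and Cenpj at -0.20 ± 0.047, none passing over all genes.

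Across 18 other settings, from other normalisations to leaving out single animals, the sign held in all 18 for Slc22a4, Slc22a5, Slc22a6, Slc22a8, Slc22a19 and Slc22a26. It held in 16 for Slc22a2, 15 for Slc22a7 and 17 for Slc22a12. Each transporter had 1 probe, so probe filters and probe choice could not move its difference. Neither could the variance model or the replicate block, so a held sign in these settings was fixed in advance. Slc22a26 ran from -0.96 to -0.79 and passed in 8 of the 18, and no other transporter of the 9 passed in any.

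**Figure D5:**
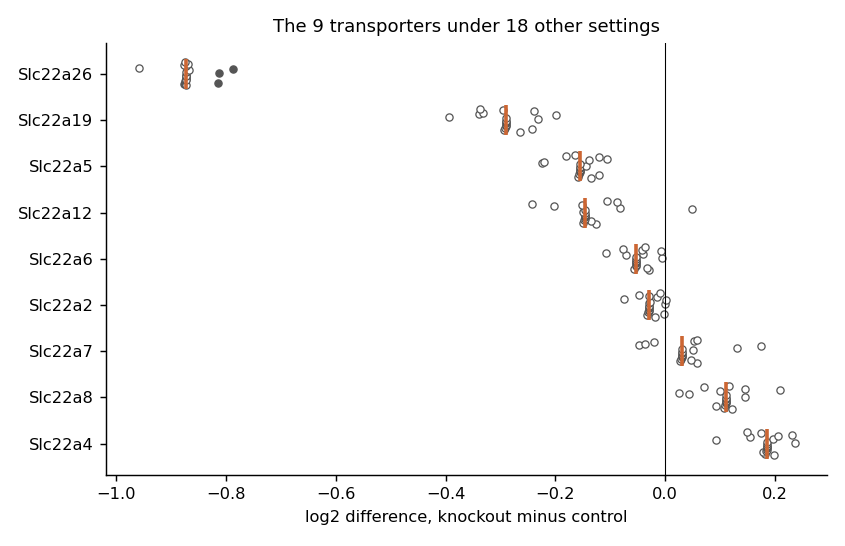
Log2 difference between knockout and control kidneys for the 9 transporters under 18 other settings (circles, filled where the adjusted p was under 0.05) and as reported (orange ticks). Slc22a26 stays between -0.96 and -0.79, apart from all others; Slc22a2, Slc22a7 and Slc22a12 have values on both sides of 0.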

How the data were processed

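Cy3-labelled RNA of 6 kidneys was measured on SurePrint G3 Mouse GE 8x60K arrays, per the labels' protocols. The authors deposited a spot intensity made in version 10.7.1.1 of Agilent Feature Extraction, per the submitters' processing notes. Per the file headers it is linear, with background and spatial trend removed but no scaling between arrays. Flags of 0 or 1 per spot were used as deposited. The deposited table of ratio values is linear: where it exceeded 1 (13933 to 13936 probes on each array), the authors' value always was within 1% of that array's signal over a constant. The column medians of 0.075 to 0.084 show no centring of genes.

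Here, log2 values were averaged over a probe's spots without outliers (92 to 151 spots per array) and scaled by the 75th percentile of 55681 probes. A probe needed to be well above background throughout 1 group, which 32961 were. Names came from the RefSeq table of GRCm38.p6 by unversioned accession (28026 probes). Since the array's grid is annotated on mm9, per the file headers, that table gave names, gene order and promoters only. A gene was read from its brightest kept probe. Promoters were aligned globally with free end gaps in Biopython 1.88 (match 2, mismatch -1, gap opening -3, extension -0.5).

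The test was limma 3.58.1 (R 4.3.3) on group alone, with Benjamini-Hochberg adjustment at 0.05. Python 3.11.15, pandas 2.3.3 and matplotlib 3.10.9 did the rest. This comparison was simulated with 15322 genes and 200 changes in each of 10 runs. The test found 64.2% of changes of 1.5-fold, 82.1% of 2-fold and 95.1% of 4-fold, and 5.59% of its calls were false. The simulated noise was normal and independent between genes and arrays, with no slide row effect. The data themselves gave 26 calls in all, and these shares are not the power for the transporters. The transporters and the gene lists (5 of pathways, 12 of markers, 111 names, all on the array) were chosen with earlier results of these data known. The rule for named genes took the transporters, Nampt, other Slc22 genes, up to 4 genes of smallest p per pathway list, marker genes that moved with a transporter and the 3 genes most alike in profile. Slc47a1, Bcl6 and Kap fall outside it and were named after their values were seen. The alternatives covered normalisation (quantile, median of detected probes, normexp with offset 50 plus quantile, deposited ratios), probe filters and probe choice, variance model, array weights, blocks for replicate number or slide row, and single arrays left out. Normexp was run on median spot signals. Some items that the rule takes are not reported here.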

Additional observations from a re-analysis of the deposited data

How the results depend on the processing

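Of 162 values of single transporters (9 genes under 18 settings), 146 kept their sign and side of the threshold, 10 lost the call of Slc22a26 and 6 turned sign. Under the probe filters, probe choices, variance model and replicate block the difference could not move, so only the call could change. By limma, 26 genes passed in all. That count was 11 with quantile normalisation, 77 with no filter, 57 with a trended and robust variance, 87 with array weights, 16 with slide row as a block and 6 in slide row 1 alone, a setting chosen after seeing the data. It was 0 with the replicate block (1633 genes at an unadjusted p under 0.05). Same-numbered animals did not deviate together (r across genes of 0.104, -0.097 and -0.027), so the numbers were not taken to pair animals. Leaving out 1 animal gave 0 to 49 genes: 0 without control 2 or control 3 (where 1436 and 1549 had an unadjusted p under 0.05), 33 without control 1, 49 without knockout 1 and 1 each without the other two knockouts.

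The 1 call among the 9 transporters, Slc22a26, became 0 calls with quantile normalisation (adjusted p = 0.0611), with no filter (0.0510), with probes in place of genes (0.0733), with the replicate block (0.161), with slide row as a block (0.136) and in slide row 1 alone (0.265). At an unadjusted p under 0.05, quantile normalisation, no filter and probes in place of genes each gave 3 of the 9, and the replicate block gave 2. Over all genes or probes tested, the same settings gave 2172 of 15322, 4208 of 21154, 3621 of 32961 and 1633 of 15322. Leaving out 1 animal gave 0 to 1 calls, the 1 without control 1, and the difference ran from -0.96 to -0.79. For Slc22a12, slide row as a block gave 0.049. Slide row 1 alone gave the same value by design, since both set knockout 1 against the controls. Slc22a2 turned to 0.00075 with array weights and, leaving out 1 animal, ran from -0.074 to 0.0014. Slc22a7 ran from -0.047 to 0.18 when 1 animal was left out. The cause of these shifts was not tested. All 9 probes were well above background on all 6 arrays.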
